A study of Brassica rapa with 38 samples.

Results

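The comparison described here set young leaves of autotetraploid plants against young leaves of monoploid plants of Brassica rapa, the species of Chinese cabbage and turnip. Its members were the 6 RNA-seq libraries labelled tetraploid or monoploid, 3 of each, out of 8 RNA-seq libraries with a table and 38 samples of the whole series. All plants went back to the inbred line '85-1', from which the monoploid was obtained by microspore culture, the diploid by colchicine doubling of the monoploid and the autotetraploid by colchicine treatment of the diploid. They were multiplied in tissue culture and grown in a greenhouse, and the inner young leaves were taken 60 days after sowing, at the study's heading transition stage. By the paper's account both groups thus carry the same parental genome in different copy number, and a single line stands for each ploidy level. Whether the sampled plants held equal copies of every chromosome was not tested here. The tetraploid also differs from the monoploid by the colchicine steps, and whether it went through more rounds of propagation is not stated. Leaf form differs as well, since the paper calls the monoploid non-heading with rather flat leaves, whereas autotetraploid leaves curve and fold. Whether the 3 libraries of a group came from separate plants or pools is not given in the sources used here. The p-values therefore measure the spread between these libraries, and whether it is technical or between plants was not tested. The tetraploid libraries differed from one another along A02, A04 and A09, as given below.

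Autopolyploidy multiplies every chromosome of a genome without adding foreign genes. If all genes respond to dosage alike, the share of each transcript in the total stays the same, and RNA-seq, which measures shares, shows no difference even where a cell holds more RNA. A difference in TPM (the share of a gene model in all transcripts of a library after correction for its length, scaled to a fixed total) is therefore a difference in the make-up of the leaf RNA. In bulk leaf RNA, fewer cells of a type and less RNA per cell cannot be told apart. No defining markers of leaf cells could be looked up, because 0 of the gene IDs could be matched to the RefSeq gene names of the species. Genes are for this reason described by their level, size and position, and no function is given.

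The tables listed 46479 gene models on 10 chromosomes. Of these, 10462 were at 0 in all 6 libraries, 10621 were above 0 but too low, and 25396, with a TPM of 1 or more in 2 or more libraries of these 6, were tested. The aligned bases per library came to 6.82, 6.50 and 6.15 Gb in monoploid replicates 1, 2 and 3 and to 6.95, 8.06 and 6.48 Gb in tetraploid replicates 1, 2 and 3. In every pair of libraries of a group, at least 64.9% of the tested genes were over 0.1 log2 units apart, so no library was a copy of another. The genes of A02 were raised as a whole in 2 of the 3 tetraploid libraries, and those of A04 and A09 in 1 each, so the calls on these chromosomes are given apart.

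Between tetraploid and monoploid leaves, 2956 genes were called, 11.6% of those tested, of which 1413 were higher (5.56% of all tested) and 1543 lower (6.08%) in the tetraploid. A gene was called when its change on the log2(TPM + 1) scale was at least 1 in either direction and its Benjamini-Hochberg adjusted p from limma was at most 0.05. The libraries of the groups did not overlap for 2921 of the called genes, against 51.2% of all tested genes. At any size of change 8826 genes (34.8%) passed the adjusted p, 5871 of them higher and 2955 lower, so most of the genes that passed it differed by less than the fold set for a call. The smallest change that passed was 0.35 on the log2 scale, and the median standard error was 0.17. In simulated data for this comparison with 25396 genes, the same fit recovered 79% of 100 genes changed by 1.5 and 94% of 100 genes changed by 2 on the log2 scale, with 2 unchanged genes called. The changed genes were drawn from higher levels only, so recovery of low genes was not tried. The simulated noise was independent between genes, with no chromosome raised and no common shift between the groups. The count of unchanged genes called therefore does not carry over to the real libraries.

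The balance of higher and lower genes depended on the scale. The median change of all tested genes was +0.19 on the log2 scale of TPM as deposited, which means that the typical gene held a larger share of the RNA in the tetraploid. Median-ratio rescaling divides each library by its typical ratio to the other libraries, and its factors were 0.906, 1.01 and 0.874 for monoploid replicates 1, 2 and 3 and 1.09, 1.08 and 1.06 for tetraploid replicates 1, 2 and 3. The factors of the groups did not overlap. After rescaling the median change was 0.01, and 2892 genes were called (11.4%), of which 915 (3.6%) were higher and 1977 (7.78%) lower. As deposited 47.8% of the called genes were higher, and after rescaling 31.6% were. Of the individual genes, 915 were called higher and 1539 lower on both scales, 498 were called higher only as deposited, 438 were called lower only after rescaling, 4 were called lower only as deposited, and 0 were called in opposite directions. Libraries that did not overlap between the groups were found for 35.5% of tested genes in the higher and 15.7% in the lower direction as deposited, and for 22.6% and 23.5% after rescaling (46.1% in both directions together). At any size of change 28% of the genes passed the adjusted p after rescaling, 3050 of them higher and 4058 lower, so the majority turned with the scale here too.

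**Figure D1:**
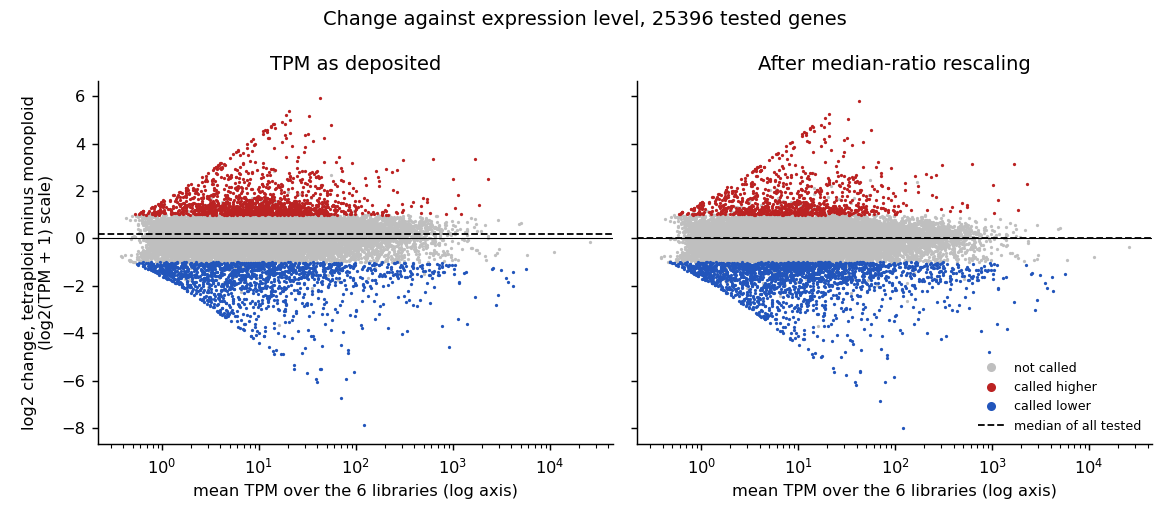
Change of each tested gene between tetraploid and monoploid leaves (vertical axis, log2(TPM + 1) scale) against its mean TPM over the 6 libraries (horizontal log axis), for TPM as deposited and after median-ratio rescaling, with called genes in colour and the median of all tested genes as a dashed line. The dashed line lies at +0.19 as deposited and at 0.01 after rescaling, and the lower genes reach further from 0 than the higher genes on both scales.

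Large changes were more often decreases. As deposited, the median change was +1.33 among called higher genes and −1.49 among called lower genes on the log2(TPM + 1) scale. A change of at least 1.5 was reached by 498 higher and 762 lower genes, a change of at least 2 by 262 higher and 393 lower genes, a change of at least 3 by 73 and 121, a change of at least 4 by 30 and 37, a change of at least 5 by 5 and 11, and a change of at least 6 by 0 and 3. The lower genes thus outnumbered the higher ones at every size in this fit. Among changes of at least 2 they did so in all 31 fits, whereas among all called genes they did so in 28, and the exceptions were a pseudocount of 0.1 (1944 higher, 1887 lower), a mean TPM of at least 5 (998 higher, 962 lower) and the fit without monoploid replicate 2 (1621 higher, 1567 lower), all as deposited. After rescaling the counts were 212 higher and 481 lower genes at a log2 change of at least 2 and 65 higher and 143 lower at one of at least 3, and the lower genes were again more numerous at every size.

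Some of these genes were detected in one group only. Of the called higher genes 46 were listed at 0 in all 3 monoploid libraries, and of the called lower genes 71 were listed at 0 in all 3 tetraploid libraries. No fold change is given for these, since the tables hold no counts that would set a lower limit.

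Most called genes kept their direction in a library left out of the fit. When the genes called without a library were read in it, between 97.7% and 99.6% lay on the called side of the opposite group's mean. Between 85.8% (monoploid replicate 2) and 95.8% (tetraploid replicate 2) lay past the midpoint between the group means, as deposited. The opposite group had also taken part in choosing these genes, so these shares are no independent replication. Shares for all tested genes were not computed. The median gene showed 100%, 85.9% and 99.7% of its change in monoploid replicates 1, 2 and 3 and 100%, 102% and 82.3% in tetraploid replicates 1, 2 and 3, as deposited. Monoploid replicate 2 and tetraploid replicate 3 thus lay nearer to the opposite group than the other libraries of their groups. After rescaling their values were 82.2% and 82.5%, and those of the other 4 libraries lay between 100% and 103%.

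The called lower genes held far more of the RNA than the called higher genes in the monoploid. They made up 18.5, 16.2 and 18.8% of all TPM in monoploid replicates 1, 2 and 3 and 5.24, 4.63 and 7.34% in tetraploid replicates 1, 2 and 3. The called higher genes made up 2.11, 2.23 and 2.03% in the monoploid and 6.89, 7.38 and 5.96% in the tetraploid. These shares describe the genes that the calls chose and are no test of them. From the group means, the called lower genes dropped by 12.1 percentage points of TPM and the called higher genes gained 4.62, and the remaining gain was in genes not called.

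A share that does not depend on the calls is that of the 100 genes with the highest mean TPM over the 6 libraries. These genes held 22.9, 20.1 and 24.7% of all TPM in monoploid replicates 1, 2 and 3 and 16.9, 17.2 and 19.3% in tetraploid replicates 1, 2 and 3. Every tetraploid library was below every monoploid library, with means of 22.5% ± 2.29 and 17.8% ± 1.32 (SD, n = 3 each). The exact two-sided permutation p was 0.10, the smallest that 3 against 3 libraries can give (0.50 after adjustment over the 5 library values tested). Those 5 values include the medians of A02, A04 and A09 given below. Of these 100 genes 26 lay on A06, and the 74 others held 15.5, 13.5 and 15.9% in the monoploid and 12.1, 12.4 and 13.2% in the tetraploid, again without overlap. With the 100 most abundant genes taken in each library for itself, a choice made after seeing the data, the shares were 23.8, 20.9 and 25.5% in the monoploid and 17.8, 18.1 and 19.7% in the tetraploid. The number of genes with a TPM of at least 1 was 24087, 24595 and 24008 in the monoploid and 24036, 24136 and 24031 in the tetraploid. These counts overlapped (exact two-sided permutation p = 0.70, adjusted 0.875), and the highest was that of monoploid replicate 2.

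**Figure D2:**
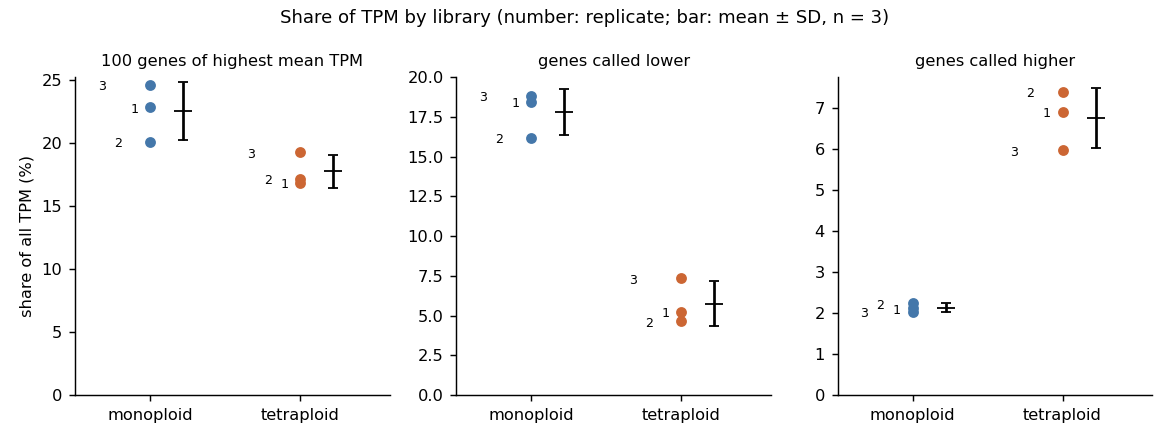
Share of all TPM (vertical axis, percent, from 0) held in each monoploid and tetraploid library by the 100 genes of highest mean TPM, by the genes called lower and by the genes called higher, as deposited, with numbers for replicates and the mean ± SD (n = 3) beside the points. The 100 most abundant genes hold 20.1 to 24.7% in the monoploid and 16.9 to 19.3% in the tetraploid, and in the other 2 panels the genes were chosen by the same libraries.

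The most abundant transcripts were called most often, and mainly as decreases. Of the 258 genes with a mean TPM of 500 or more, 53 were called lower (20.5%, against 6.08% of all tested genes) and 12 higher (4.65%, against 5.56%). After rescaling 61 were called lower and 9 higher, and with quantile normalization 45 were lower and 19 higher. The median change of the class was −0.01 on the log2 scale as deposited and −0.22 after rescaling, below the medians of all genes on both scales. The 53 decreased genes of this class alone held 10.8, 9.28 and 11.5% of all TPM in the monoploid and 3.15, 2.69 and 4.55% in the tetraploid. Of the fall in the share of all called lower genes, 58.5% was in these 53 genes. Among the 10 most abundant genes 5 were lower and 0 higher on both scales, and among the 100 most abundant 25 were lower and 8 higher as deposited.

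On A06, which held 2796 of the 25396 tested genes, 41 of the 258 abundant genes were found. Of these 10 were called lower and 1 higher, and their median change was −0.50 on the log2 scale, against +0.13 for the class outside A06, both as deposited. Outside A06, 43 of 217 were called lower (19.8%) and 11 higher (5.07%), close to the shares with A06 included.

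At lower levels the directions were closer to even. Between a mean TPM of 5 and 20, 585 of 10178 genes were higher (5.75%) and 487 lower (4.78%), and between 20 and 100 TPM 353 of 6378 were higher (5.53%) and 304 lower (4.77%). In these classes the higher genes outnumbered the lower ones as deposited, but after rescaling the counts turned to 367 higher and 638 lower, and to 204 higher and 431 lower. Between 100 and 500 TPM 3.25% were higher and 8.09% lower, and under 2 TPM 4.67% were higher and 8.79% lower. In these classes and in that from 500 TPM the decreases were in the majority on both scales. From 2 to 5 TPM 279 genes were higher and 324 lower as deposited, but with a pseudocount of 0.1 there were 446 higher and 407 lower, and without monoploid replicate 2 there were 312 of each. The pseudocount of 1 holds back the change of low genes, and with one of 0.1 the class under 2 TPM had 336 higher and 436 lower genes as deposited.

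**Figure D3:**
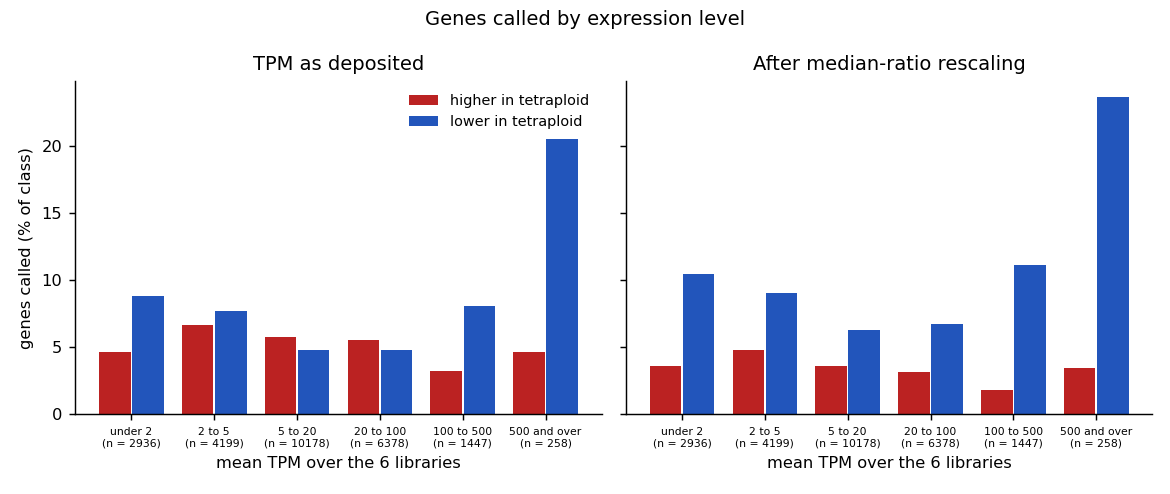
Percent of tested genes called higher or lower in the tetraploid (vertical axis, from 0) in 6 classes of mean TPM over the 6 libraries, as deposited and after median-ratio rescaling, with the number of genes under each class. The bar for decreases stands highest in the class of 500 TPM and over, at 20.5% as deposited, and in the classes from 5 to 100 TPM the taller bar changes with the scale.

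Short gene models were called more often than long ones. Of gene models that span less than 1 kb 16.6% were called (7.55% higher, 9.03% lower), against 11.0% of those of 1 to 2 kb, 9.77% of those of 2 to 4 kb and 8.70% of those of 4 kb and over. The same order was seen on the rescaled values, where the shares ran from 16.3% to 8.48%. Within the class of 5 to 20 TPM the share called fell from 16.3% under 1 kb to 6.65% at 4 kb and over, and within that of 20 to 100 TPM from 16.1% to 7.27%. Under 2 TPM it was 15.5, 12.6, 11.8 and 14.2% from short to long, and from 2 to 5 TPM 20.7, 12.9, 11.7 and 12.5%. In both of these classes it was highest under 1 kb but did not fall throughout. Above 100 TPM no such order was seen, with 12.2% under 1 kb and 14.1% at 4 kb and over between 100 and 500 TPM. The part of short span in the precision of TPM was not tested. The median standard error was 0.20 for models under 1 kb and 0.16 for those of 4 kb and over.

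Along the chromosomes the calls were spread widely. With each chromosome divided into 10 parts of equal length, between 10.5% and 13.9% of the tested genes were called in a part. In 5 classes of genes by the number of gene models within 500 kb on either side, between 10.8% and 12.5% were called, and both strands had like shares (11.5% and 11.8%). Among the 7 chromosomes other than A02, A04 and A09 the share called ran from 9.82% on A10 to 13.4% on A07. On these 7 chromosomes together 898 genes were higher (5.08%) and 1124 lower (6.36%) as deposited, and 598 higher and 1445 lower after rescaling. The decreases thus exceeded the increases on both scales where no library was raised, as they did on these 7 chromosomes in all 31 fits made with other settings or without single libraries, these included.

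On A02, A04 and A09, 515 genes were higher and 419 lower as deposited, and 317 were higher and 532 lower after rescaling, so the direction of the majority turned with the scale. A04 had more lower than higher genes on both scales. The median log2 level of the genes of a chromosome, set against the 7 other chromosomes and relative to the monoploid mean, was 0.32 on A02 in tetraploid replicate 1, 0.32 in tetraploid replicate 3 and 0.00 in tetraploid replicate 2. On A04 it was 0.33 in tetraploid replicate 2, 0.04 in replicate 1 and 0.00 in replicate 3. On A09 it was 0.33 in tetraploid replicate 1, and 0.00 and −0.01 in replicates 2 and 3. On the 7 other chromosomes no library of the 6 was further than 0.03 from the monoploid mean. The raised values were nearly the same on all 3 chromosomes, and 4 of the 9 combinations of these chromosomes and tetraploid libraries were raised. In the 10 parts of equal length of each chromosome, leaving out parts with fewer than 20 genes, the median in these libraries was 0.24 to 0.35 on A02 in tetraploid replicate 1, 0.26 to 0.34 on A02 in replicate 3, 0.27 to 0.41 on A04 in replicate 2 and 0.29 to 0.36 on A09 in replicate 1. In the tetraploid libraries not raised there it lay between −0.10 and 0.08. The exact two-sided permutation p of the difference between the groups was 0.30 for A02, 0.30 for A04 and 0.90 for A09, in a design that cannot go below 0.10. These chromosomes were set apart because single tetraploid libraries were raised there. A comparison of whole groups does not address a rise in single libraries, so no conclusion is drawn from these p-values.

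**Figure D4:**
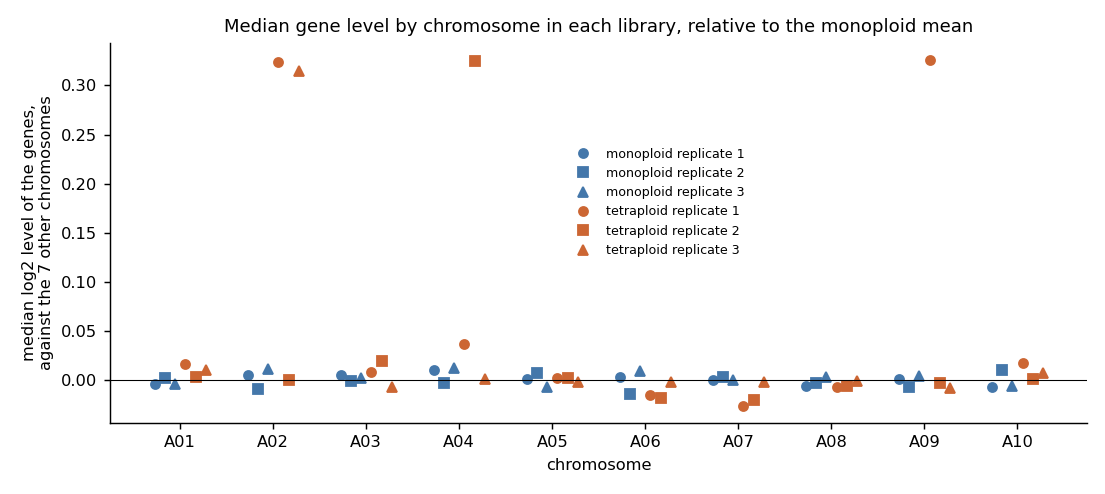
Median log2 level of the genes of each chromosome (vertical axis) in each of the 6 libraries, set against the 7 chromosomes other than A02, A04 and A09 and relative to the mean of the monoploid libraries. Tetraploid replicates 1 and 3 stand at 0.32 on A02, replicate 2 at 0.33 on A04 and replicate 1 at 0.33 on A09, while all other points lie within 0.04 of 0.

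The raised libraries moved with the calls on their chromosomes. On A02 177 genes were called higher and 107 lower, 62.3% higher, against 44.4% on the 7 other chromosomes. Without tetraploid replicates 1 and 3, in a fit that left a single tetraploid library and took its spread from the monoploid, 92 were higher and 101 lower, and 47.7% higher against 45.9% on the 7 others. On A04 95 were higher and 107 lower, 47.0% higher against 44.4% on the 7 others, and without tetraploid replicate 2 there were 62 higher and 106 lower, 36.9% against 43.4%. A04 thus lay below the others once the raised library was left out. On A09 243 were higher and 205 lower, 54.2% higher against 44.4%, and without tetraploid replicate 1 there were 196 higher and 207 lower, 48.6% against 45.8%. When each chromosome was rescaled to its own median in every library, the counts were 76 higher and 167 lower on A02, 45 and 143 on A04 and 145 and 281 on A09. This rescaling sets the median change of every chromosome near 0 by its construction, and so also moves the balance of directions. The spread of the tetraploid was also wider on these chromosomes, with a median SD of 0.22, 0.24 and 0.22 on A02, A04 and A09 against 0.16 on the others, whereas the monoploid had 0.19, 0.20 and 0.19 on A02, A04 and A09 and 0.19 on the others.

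Called genes lay next to each other more often than their share among all genes. The next tested gene along the chromosome was called in the same direction for 9.48% of the higher genes, where 5.56% of all genes were higher, and for 10.7% of the lower genes, where 6.08% of all genes were lower. After rescaling the shares were 8.52% beside 3.6% and 12.8% beside 7.78%. Without the genes of the 3 windows described next they were 9.06% and 10.0% as deposited. Most called genes nevertheless stood alone, with 1165 higher and 1231 lower genes that had no called neighbour of their direction, 114 runs of 2 or more higher genes and 147 runs of 2 or more lower genes. Neighbours that share a sequence or a transcript are not independent, and shared reads between them were not tested.

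In 502 windows of 50 consecutive tested genes the median window held 3 higher and 3 lower genes, and the most of either was 12. The window with the most higher genes lay on A02 from 7604388 to 8128329, in coordinates of the tables, with 12 higher and 1 lower. As tetraploid replicates 1 and 3 were raised along A02, the count without them is given as well, which was 6 higher and 2 lower, and with chromosome rescaling it was 7 higher and 2 lower. The window with the most lower genes besides A07 lay on A06 from 30390988 to 36386566, with 0 higher and 12 lower as deposited and 0 higher and 18 lower after rescaling. All 12 lay between 30397717 and 30516088, at the start of the window. Without monoploid replicate 3 the count of lower genes was 5, and without monoploid replicate 2 it was 19.

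The A06 window held abundant transcripts. Its 68 gene models made up 4.05, 3.66 and 4.98% of all TPM in monoploid replicates 1, 2 and 3 and 2.52, 2.32 and 3.16% in tetraploid replicates 1, 2 and 3, with no overlap between the groups. The window was chosen by its lower genes in the same libraries, so these shares are no test of it. The diploid libraries, given beside these for reference, had 2.22 and 0.917%. Of the 50 tested genes 18 had the same span to the base as another gene model of the window, and so had 6 of the 12 called lower. Reads of near-identical copies can be divided in more than one way, so the values of single models there are uncertain.

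The window on A07 from 20947845 to 21431500 stood among the first for both directions, with 11 higher and 12 lower genes. It held the longest runs of called genes as deposited, 7 consecutive tested genes that were higher between 21038353 and 21084391 and 7 that were lower between 21114812 and 21172441. These runs lie side by side and carry gene models of the same strand and nearly the same span in the same order, 76459 bp apart in the first pair and 88050 bp apart in the last called pair. By span and strand 9 such pairs were found, and in 6 of them the first model was called higher and the second lower. The pairs were sought after the runs had been seen and get no test as a group.

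Within each of these 6 pairs, nearly all TPM was assigned to 1 model in the monoploid and to the other in the tetraploid. In the pair of 1311 bp, the model in the first stretch had a TPM of 0, 0 and 0.0215 in monoploid replicates 1, 2 and 3 and of 19.0, 17.7 and 13.2 in tetraploid replicates 1, 2 and 3. The model of the second stretch had 25.1, 32.5 and 25.5 in the monoploid and 0.0516, 0.0591 and 0.0328 in the tetraploid. The log2 changes on the log2(TPM + 1) scale were 4.11 and −4.77. Neither model overlapped between the groups, and each was near 0 in the group in which the other held the TPM.

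The pair of 1855 bp behaved alike. Its first model was at 0 in all 3 monoploid libraries and at 13.8, 15.4 and 15.9 TPM in the tetraploid. Its second model was at 20.4, 25.3 and 20.2 TPM in the monoploid and at 0.270, 0.480 and 0.218 in the tetraploid. In the pair of 567 and 570 bp, the first model had 0.192, 0.308 and 0.201 TPM in the monoploid and 3.85, 2.53 and 4.38 in the tetraploid, and the second had 8.28, 9.40 and 9.02 in the monoploid and 0.0589, 0.0146 and 0 in the tetraploid. In the pairs of 948 bp, of 1985 and 1991 bp and of 1338 bp the model with the higher TPM lay between 2.18 and 5.44 TPM. The other lay at no more than 0.180 TPM.

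Over the 6 pairs the first model held at least 96.4% of the summed TPM of its pair in every tetraploid library and at most 3.24% in every monoploid library. In the diploid libraries it held at least 77.7%, and in 11 of the 12 values at least 94.8%, so the diploid lay on the side of the tetraploid. The summed TPM of both models was also compared. In the pair of 1311 bp the sums were 25.1, 32.5 and 25.6 TPM in the monoploid and 19.0, 17.7 and 13.2 in the tetraploid, with means of 27.7 ± 4.18 and 16.7 ± 3.05 (SD, n = 3 each). In the pair of 948 bp they were 2.95, 4.65 and 2.52 TPM in the monoploid and 3.86, 3.84 and 3.52 in the tetraploid, and overlapped. In 5 of the 6 pairs the sums did not overlap between the groups, lower in the tetraploid in 4 and higher in 1. Of all tested genes 51.2% did not overlap as deposited, 35.5% higher and 15.7% lower. The 6 pairs were chosen by their calls, so this count is no test of them. In a seventh pair, of 1155 and 1159 bp, the second model was called lower and the first, at 1.11, 0.802 and 0.686 TPM in the tetraploid and near 0 in the monoploid, was not tested. In an eighth pair, of 8052 bp, the first model was at 0 in all libraries and the second was not called (1.21, 1.00 and 1.02 TPM in the monoploid, 0.541, 1.25 and 0.644 in the tetraploid), and the ninth was at or near 0 throughout. The sequence of the copies was not used here, and how reads were divided between them was not tested.

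**Figure D5:**
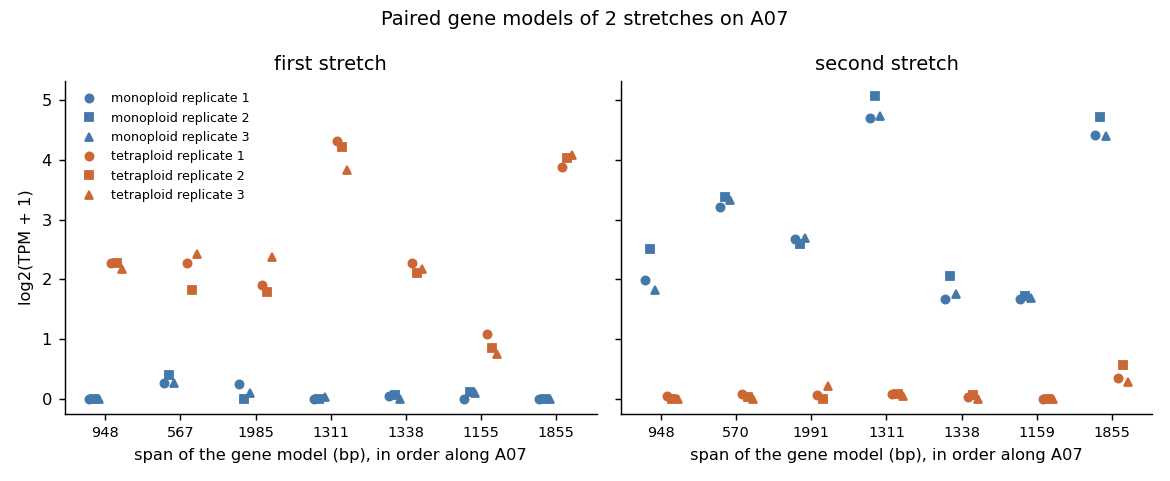
Level of the paired gene models of both stretches on A07 (vertical axis, log2(TPM + 1)) in each monoploid and tetraploid library, in the order of the models along the chromosome and named by their span in bp. In the first stretch the monoploid points lie near 0 and the tetraploid points above them, and in the second stretch the order is reversed in all 7 pairs shown.

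Pairs of like span were also counted on all chromosomes, as tested genes of the same strand whose spans differed by at most 1% and whose starts lay within 200 kb. Of 2270 such pairs 20 had opposite calls and 31 the same call. On A07 8 of 196 pairs had opposite calls and 0 the same call, and on the other chromosomes 12 of 2074 had opposite calls and 31 the same. With spans equal to the base there were 144 pairs, of which 5 had opposite calls, 4 of them on A07, and 17 the same call, 11 of them on A09. The 6 pairs described above are among the 8 on A07, and all 4 of equal span there belong to them. The count on A07 thus repeats those pairs and is no separate support. Of all tested genes 5.56% were called higher and 6.08% lower, and the pairs were not tested against what these shares give. Models of like span need not be copies, and their sequence was not compared.

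The largest changes in TPM were taken from the 1702 genes that were called on both scales, did not overlap between the groups and lay outside A02, A04 and A09, of which 593 rose and 1109 fell. The largest rise in mean TPM was that of BRA05G0046263, a gene model of 361 bp on the minus strand of A05 from 42431943 to 42432303. Its TPM was 674, 126 and 208 in monoploid replicates 1, 2 and 3 and 2790, 4917 and 1446 in tetraploid replicates 1, 2 and 3. All tetraploid libraries were above all monoploid libraries, but both groups were widely spread, with means of 336 ± 296 and 3051 ± 1751 TPM (SD, n = 3 each). The change was 3.37 ± 0.62 (SE) on the log2(TPM + 1) scale, with a limma adjusted p of 0.00455. The diploid libraries had 1004 and 987 TPM.

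The next largest rise was that of BRA06G0038137, of 553 bp on the minus strand of A06 from 47666354 to 47666906. It had 965, 1204 and 904 TPM in the monoploid and 2530, 3039 and 2524 TPM in the tetraploid. The libraries of each group lay close together, and the log2 change was 1.40 ± 0.19 (SE, limma adjusted p = 0.00111) as deposited and 1.18 ± 0.19 after rescaling. The diploid libraries had 3605 and 2159 TPM, on either side of the tetraploid ones.

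The largest fall was that of BRA06G0039853, of 1440 bp on the plus strand of A06 from 30496553 to 30497992, inside the A06 window. Its TPM was 7792, 6600 and 9369 in the monoploid and 2927, 2340 and 4821 in the tetraploid, so this model alone held a mean share of 7920 TPM in the monoploid and 3363 TPM in the tetraploid. The groups did not overlap, and the log2 change was −1.29 ± 0.30 (SE, limma adjusted p = 0.0120). This call was not firm, since the adjusted p was 0.056 without monoploid replicate 3, and after rescaling it was between 0.0611 and 0.0739 without monoploid replicate 1, monoploid replicate 3, tetraploid replicate 1 or tetraploid replicate 2. Without the filter on low values it was 0.166, and with quantile normalization the change was −0.83, short of the fold set for a call. The diploid libraries had 1850 and 744 TPM.

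The next largest fall was that of BRA07G005321, of 805 bp on the minus strand of A07 from 22879783 to 22880587. It had 5035, 4047 and 5250 TPM in the monoploid and 530, 499 and 1155 TPM in the tetraploid. The highest tetraploid library, replicate 3, was still well below the lowest monoploid library. The log2 change was −2.82 ± 0.32 (SE, limma adjusted p = 0.000545) as deposited and −3.03 ± 0.36 after rescaling, and the diploid libraries had 781 and 1339 TPM.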

How the data were processed

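RNA-seq of 3 monoploid and 3 tetraploid libraries was analysed. Per the labels and the study's methods, the authors trimmed reads with fastp (0.21.0 in the processing notes), aligned them with HISAT2 (2.2.1 in the processing notes, where the methods name another version) and quantified genes with StringTie (1.3.5 in the notes). The genome assembly and annotation are not given in the sources used here, so coordinates are those of the tables. The deposited TPM values are shares scaled to a fixed sum per library. The deposited FPKM and the deposited coverage were used only for depth, as their ratio, which was constant within a library. The authors counted reads with featureCounts for their own test, and no counts were used here, so precision rests on the replicates. The table for monoploid replicate 1 has 3 columns that belong to no listed sample and were left out.

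Genes at 1 TPM or more in 2 or more of these 6 libraries were fitted on log2(TPM + 1) with limma 3.58.1 in R 4.3.3 (lmFit and eBayes with trend), with p-values adjusted by the Benjamini-Hochberg method over all tested genes. The pseudocount of 1 understates changes of low genes. Calls required an adjusted p no higher than 0.05 and a log2 change of 1 or more in size. The fit was tested on simulated data. Library values were compared with exact permutation tests in scipy 1.17.1. Tables were handled in pandas 2.3.3 and figures drawn with matplotlib 3.10.9. Genes were named as the 2 largest rises and falls of mean TPM among genes called on both scales, not overlapping and outside A02, A04 and A09, and windows as those of 50 tested genes with the most calls in a direction. The window rule gave 3 windows, as that on A07 was chosen for both directions. The members, rules and classes were chosen with earlier results of these data known. Alternatives were another pseudocount, other filters, a stricter adjusted p, a replicate block, eBayes without trend, a fit with the diploid libraries, other scalings and each library left out. Leaving out the genes of the named windows and taking the most abundant genes by library or outside A06 were added after seeing the data.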

Additional observations from a re-analysis of the deposited data

How the results depend on the processing

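The count of called genes stayed within 1.5 times its value except under a mean TPM of at least 5, which tests fewer genes: 1960 called, 998 higher and 962 lower as deposited (58 lower on A02, 62 on A04 and 124 on A09), and 1901 called, 589 higher and 1312 lower after rescaling. As deposited the majority turned to the higher genes under that filter, with a pseudocount of 0.1 (1944 higher, 1887 lower) and without monoploid replicate 2 (1621 and 1567). The split also moved with the scaling, with 893 higher and 1981 lower when each chromosome was rescaled to its own median (76 higher and 167 lower on A02, 45 higher on A04, 145 higher on A09) and 1106 higher and 1746 lower with quantile normalization, where the class of 500 TPM and over had 19 higher and 45 lower. Without the raised libraries 92 genes were higher on A02 and 62 on A04. Leaving out single libraries gave 2708 to 3227 called genes as deposited (1298 to 1621 higher, 1410 to 1634 lower) and 2583 to 3112 after rescaling (791 to 1006 higher, 1761 to 2161 lower). On A02 these counts were 165 to 210 higher and 91 to 127 lower, on A04 62 to 122 and 94 to 111, and on A09 196 to 308 and 185 to 211. The difference in the number of genes at or above 1 TPM, −162 genes in all libraries, turned to +597 (p = 0.30) with a TPM of at least 5 and ranged from −273 to +20.2 without single libraries (+20.2 without monoploid replicate 2, exact permutation p = 0.80). The difference on A09 turned to −0.0052 (exact permutation p = 0.40) without tetraploid replicate 1 and ranged up to 0.16. Their causes were not tested. With the replicate number as a block 3029 genes were called as deposited and 2971 after rescaling. Same-numbered libraries had correlations of 0.22, 0.18 and 0.08 of their deviations from the group means, each library correlated best with its own number, and the labels do not say that a number marks a pair. Without the genes of the named windows 2908 and 2840 genes were called. With 3 libraries a group and no counts, small changes in low or short genes could not be resolved.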
